A study of Mus musculus with 106 samples.

Results

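Adiponectin (Adipoq), leptin (Lep), resistin (Retn) and nicotinamide phosphoribosyltransferase (Nampt, the enzyme also known as visfatin) were followed here with the leptin receptor (Lepr) and the adiponectin receptors Adipor1 and Adipor2, in bulk RNA sequencing of tissues of mice kept in the cold or in the warmth. These 7 genes were chosen by symbol, and all of them were present among the 21647 gene rows of the largest count table and in the other 3 tables. The mice were male C57BL/6J, unmodified and 8 weeks old at the start. One set was cooled in steps of 5 days, first to 18 °C and then to 14 °C, before 2 weeks at 10 °C, another spent 4 weeks at 34 °C, and each set had its own controls at 22 °C. The tissues were interscapular brown fat (iBAT), inguinal subcutaneous white fat (ingSAT), perigonadal visceral white fat (pgVAT), quadriceps muscle, ileum, liver, spleen, brain, hypothalamus, spinal cord and bone marrow at 10 °C, and iBAT, quadriceps, ileum, liver and brain at 34 °C. The white depots at 34 °C are not analysed here. A group was 3 libraries, each a pool of 2 mice, except that bone marrow had 6 and spinal cord 5 libraries of 1 mouse a group. Mice per library are uncertain for iBAT of the 34 °C experiment. The paper's methods describe pools of 2 mice there, but single mice are possible. The labels give an age of 11 weeks for most tissues of the 10 °C experiment and of 12 weeks for quadriceps and the 34 °C experiment, with the same age in the treated and control libraries of each comparison. They do not say whether different tissues came from the same mice.

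Adipokines are hormones that fat cells release into the blood. Leptin reports the size of the fat store to neurons of the hypothalamus, and its receptor signals through the JAK-STAT pathway, while adiponectin acts through Adipor1 and Adipor2 on lipid oxidation and AMP-activated kinase. In mice resistin is made by fat cells, and Nampt catalyses the rate-limiting step by which nicotinamide is recycled into NAD. Brown fat burns lipid to make heat and is driven by sympathetic nerves, and sympathetic input is known to lower leptin expression.

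The results turn on the genes of 3 hormones, so the 250 bases before their RefSeq transcription starts (GRCm38.p6, plus strand, 5′ to 3′) are shown. The windows were searched on both strands for the TATA box (TATAAA), the CCAAT box (its letters are its name), the C/EBP-type motif (TTNNGCAA) and a nuclear receptor motif (AGGTCA), and the matches did not overlap each other. Capitals mark the matches. They lie at chr6:29059971-29060220 for Lep, chr16:23146286-23146535 for Adipoq and chr8:3655520-3655769 for Retn.
Lep: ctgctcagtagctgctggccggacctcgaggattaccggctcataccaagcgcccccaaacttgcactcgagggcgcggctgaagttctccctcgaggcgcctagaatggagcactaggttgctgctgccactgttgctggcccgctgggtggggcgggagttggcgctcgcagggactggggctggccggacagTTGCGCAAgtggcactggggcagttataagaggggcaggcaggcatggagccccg
Adipoq: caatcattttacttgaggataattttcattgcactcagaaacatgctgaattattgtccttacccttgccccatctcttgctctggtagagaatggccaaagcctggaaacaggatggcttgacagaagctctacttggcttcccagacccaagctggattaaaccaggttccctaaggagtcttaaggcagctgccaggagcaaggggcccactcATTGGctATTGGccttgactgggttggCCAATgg
Retn: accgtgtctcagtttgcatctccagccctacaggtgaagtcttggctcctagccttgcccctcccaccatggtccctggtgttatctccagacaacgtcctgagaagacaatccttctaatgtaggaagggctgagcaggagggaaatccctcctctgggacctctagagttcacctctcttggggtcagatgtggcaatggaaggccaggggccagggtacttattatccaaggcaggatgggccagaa
The Lep window held 1 C/EBP-type match, 55 to 48 bases before the start, a motif present in 9.56% of 32851 mouse promoter windows of this length. The Adipoq window held 3 CCAAT matches, 2 of them read on the other strand, against 33.8% of all windows with at least 1. In the Retn window no match was found, and TATAAA and AGGTCA, held by 12.4% and 14.02% of all windows, were found in none of the 3. A match describes the letters only, and no binding was measured.

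In the GRCm38 annotation Adipoq spans chr16:23146536-23158028 and Lep chr6:29060220-29073877, both on the plus strand. Retn spans chr8:3655770-3660110 and Nampt chr12:32819545-32853349, also on the plus strand. Lepr lies at chr4:101717404-101815352 and Adipor1 at chr1:134415378-134433351 on the plus strand, and Adipor2 at chr6:119353150-119417704 on the minus strand. The noncoding gene Gdap10 lies within Nampt on the same strand, so reads of the shared stretch could not be told apart by strand.

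The 76 libraries of the 10 °C experiment held 4262403 to 58290770 counts each, with a median of 17501041, and the 30 libraries of the 34 °C experiment 29545458 to 62880248, with a median of 41889787. All values below are CPM, counts per 1000000 of the TMM-scaled library size. A gene was called when its p without adjustment did not exceed 0.05 and its fold was over 1.5, the study's limits, and only the Benjamini-Hochberg adjusted p over all genes is printed. Over 11 tissues at 10 °C, 63 of the 77 pairs of a gene and a tissue passed the filter on low counts, and 6 of them were called, 5 higher and 1 lower. The share of all genes called there ran from 0.271% in spinal cord to 16.3% in ingSAT. Over 5 tissues at 34 °C, 28 of 35 pairs passed and 3 were called, 2 higher and 1 lower. There the share of all genes ran from 0.193% in brain to 19.4% in iBAT. Each count below is given with the share of its own comparison. A few libraries stood apart in marker genes of other cells. The pgVAT libraries 1 and 3 at 10 °C carried 23323 and 28154 CPM of 8 epididymis markers, against 4.01 CPM in library 2 and 815 to 2585 CPM at 22 °C, and 1 of the 8 was called. The brain library 2 at 22 °C carried 64265 CPM of 5 hepatocyte markers against 733 to 1102 CPM in the other 5 brain libraries. Log2 fold changes of the 7 genes and counts of related genes in pgVAT are given with and without these libraries. In brain this was done for Adipor2 only.

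At 22 °C the hormones were largely transcripts of fat, whereas the receptors and Nampt were found in every tissue. CPM was TMM-scaled within each tissue, so levels of different tissues share no common TMM scale. Only the joint fit below scaled the 3 depots together. In the table of 8 tissues sequenced alike, Adipoq averaged 3999 ± 984 CPM in pgVAT, 3771 ± 760 CPM in ingSAT and 1444 ± 241 CPM in iBAT (SD, n = 3), with overlapping libraries in the white depots and a gap to iBAT. The next tissue, ileum, had 10.7 ± 5.86 CPM. Lep followed the same order, from 1225 ± 562 CPM in pgVAT and 561 ± 394 CPM in ingSAT, which overlapped, to 36.2 ± 20.5 CPM in iBAT and 1.04 ± 0.791 CPM in ileum. Retn was ordered likewise, with 1233 ± 345 CPM in pgVAT, 892 ± 33.7 CPM in ingSAT and 72.0 ± 15.7 CPM in iBAT. In brain and hypothalamus these 3 genes were below 0.5 CPM in every 22 °C library.

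Nampt and Adipor2 had their highest means in brown fat. Nampt, separated from the other depots, stood at 532 ± 83.3 CPM in iBAT against 201 ± 71.9 CPM in pgVAT and 156 ± 6.48 CPM in ingSAT, and it was still 52.8 ± 6.91 CPM in liver, the tissue with the lowest mean. Lepr, whose protein binds leptin, averaged 57.4 ± 1.73 CPM in spleen, 36.5 ± 4.89 CPM in ileum and 14.6 ± 4.09 CPM in hypothalamus, each separated from the next, and its lowest mean was in iBAT, at 1.29 ± 0.224 CPM. Between the tables Lepr was counted differently. In the table of the 34 °C experiment, ileum at 22 °C gave 3.54 ± 0.452 CPM and iBAT 0.267 ± 0.121 CPM, so Lepr levels are not compared across tables. The order of tissues changed as well. Brain at 22 °C gave 5.37 ± 0.256 CPM there, above ileum, but 7.76 ± 1.02 CPM in the table of 8 tissues, below ileum. The order given for Lepr therefore holds for the table of 8 tissues only. Adipor1 ran only from 84.3 ± 1.90 CPM in hypothalamus to 368 ± 64.2 CPM in spleen. Adipor2 averaged 1295 ± 62.2 CPM in iBAT, 1158 ± 159 CPM in ingSAT, 955 ± 143 CPM in pgVAT and 874 ± 40.8 CPM in liver, with overlap between each neighbouring pair.

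Genes can be compared with each other only per length, so mean CPM was divided by the exon length in kilobases. On that scale Adipoq led in every fat depot, with 1046 CPM per kb in iBAT, 2730 in ingSAT and 2896 in pgVAT. In iBAT the next were Adipor2 at 217 and Nampt at 105 CPM per kb, with Lep at 10.8, while in pgVAT the next were Retn at 781 and Lep at 365 CPM per kb. Adipor2 exceeded Adipor1 in the fat depots (217 against 56.4 CPM per kb in iBAT), and in liver it stood at 146 CPM per kb. Lepr stayed at or below 1.16 CPM per kb in fat.

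**Figure D1:**
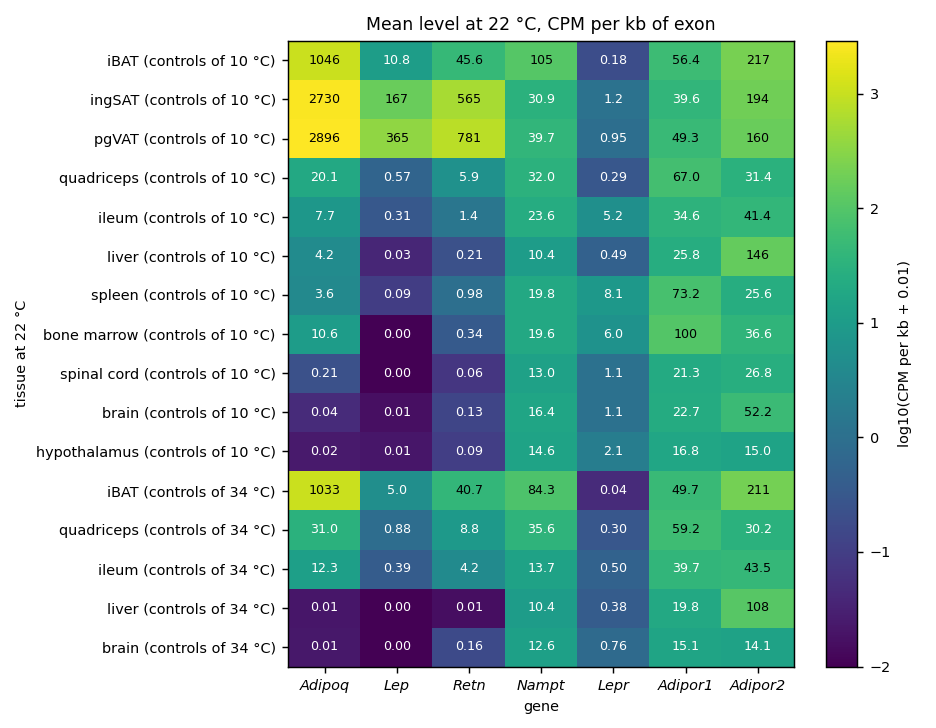
Heat map of the mean level of each of the 7 genes (columns) at 22 °C in each tissue (rows), with CPM per kilobase of exon printed in each cell and the colour on a log10 scale. Adipoq, Lep and Retn are high in the 3 fat depots and low elsewhere, with Adipoq at 1046 to 2896 CPM per kb in fat, whereas Nampt, Adipor1 and Adipor2 are found in all tissues.

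A joint fit of the 18 fat libraries tested these depot differences at 22 °C. Between ingSAT and iBAT, 6 of the 7 genes were called, also with an adjusted p under 0.05, in a contrast where 43.1% of all genes were called and 39.3% with the adjusted limit. Lep was higher in ingSAT by 3.53 ± 0.70 (log2, SE; adjusted p = 0.000862), Retn by 3.19 ± 0.38 (adjusted p = 9.44e-06), Lepr by 2.23 ± 0.39 (adjusted p = 0.000294) and Adipoq by 0.94 ± 0.34 (adjusted p = 0.0350). Nampt (log2 difference −2.21 ± 0.31, adjusted p = 4.26e-05) and Adipor1 (−0.95 ± 0.17, adjusted p = 0.000297) were lower in ingSAT. Adipor2 gave −0.61 ± 0.31 and missed the call (adjusted p = 0.128). Between pgVAT and iBAT all 7 genes were called, against 47.9% of all genes, and all 7 at the adjusted limit, against 43.7%. The directions were those of ingSAT, from 4.61 ± 0.74 for Lep to −1.87 ± 0.30 for Nampt, and Adipor2 was −0.91 ± 0.31 (adjusted p = 0.0256). Between the white depots 0 of 7 were called by edgeR or DESeq2, with 0 at an unadjusted p under 0.05, against 18.3% of all genes; the difference for Lep was 1.09 ± 0.64. Without ingSAT control library 3 Lep was called (1.79), and without pgVAT control library 3 Nampt was (0.60). These depots differ in composition, and scaling by library size alone moved the median of all genes by 0.35 for ingSAT and 0.42 for pgVAT against iBAT; Adipor1 was then −0.58 and −0.25, and Adipor2 in pgVAT −0.49, all no longer called. Without pgVAT control library 1, Adipor1 in pgVAT was −0.53 and not called, and without pgVAT cold library 2 Adipor2 in ingSAT was called at the same difference.

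In brown fat at 10 °C none of the 7 genes was called by edgeR, DESeq2 or edgeR's exact test, where 13.2% of all genes tested were called. Adipoq and Retn had an unadjusted p under 0.05 with folds short of the limit. Such a p was held by 3567 of all 12791 genes tested. Adipoq was 1292, 1318 and 1723 CPM in the 22 °C libraries and 1036, 979 and 1051 CPM at 10 °C. The groups did not overlap, and the log2 fold change was −0.50 ± 0.16 (adjusted p = 0.0799). In bulk tissue fewer fat cells and less RNA per cell cannot be told apart, here and in all results below. Per 1000 CPM of 10 adipocyte markers Adipoq was 74.3 to 86.9 at 22 °C and 52.3 to 55.8 at 10 °C, again without overlap, with 3 of the 10 markers themselves called lower. Skeletal muscle markers also moved in these libraries: 6 of 8 were called lower at 10 °C, with sums of 6877 to 9878 CPM at 22 °C and 2717 to 5638 CPM at 10 °C, as did brown fat markers (8312 to 13514 CPM against 14449 to 18195 CPM), red cell markers (369 to 570 CPM against 622 to 992 CPM) and hepatocyte markers (44.0 to 80.2 CPM against 0.509 to 1.39 CPM), all without overlap. The part of these cells in the result was not tested. Retn was 88.6, 70.1 and 57.3 CPM at 22 °C and 125, 81.6 and 101 CPM at 10 °C. Its groups overlapped, and its log2 fold change was 0.52 ± 0.19 (adjusted p = 0.121). It was called without control library 1 (0.69) or cold library 2 (0.66).

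Lep in brown fat was 26.3, 59.7 and 22.5 CPM at 22 °C and 66.5, 12.4 and 47.5 CPM at 10 °C. Its lowest and highest libraries were both at 10 °C, and the log2 fold change was 0.23 ± 0.54 (adjusted p = 0.821). Nampt was level, at 608, 544 and 443 CPM against 488, 534 and 532 CPM, with a log2 fold change of −0.04 ± 0.15. Among the receptors, Lepr was 1.48, 1.34 and 1.04 CPM at 22 °C and 0.792, 0.952 and 0.636 CPM at 10 °C. These few reads did not overlap, but the log2 fold change of −0.68 ± 0.31 missed the call (adjusted p = 0.197), which was made without control library 3 (−0.82). Adipor1 gave 0.16 ± 0.12 and Adipor2 0.16 ± 0.17, both with overlapping libraries.

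**Figure D2:**
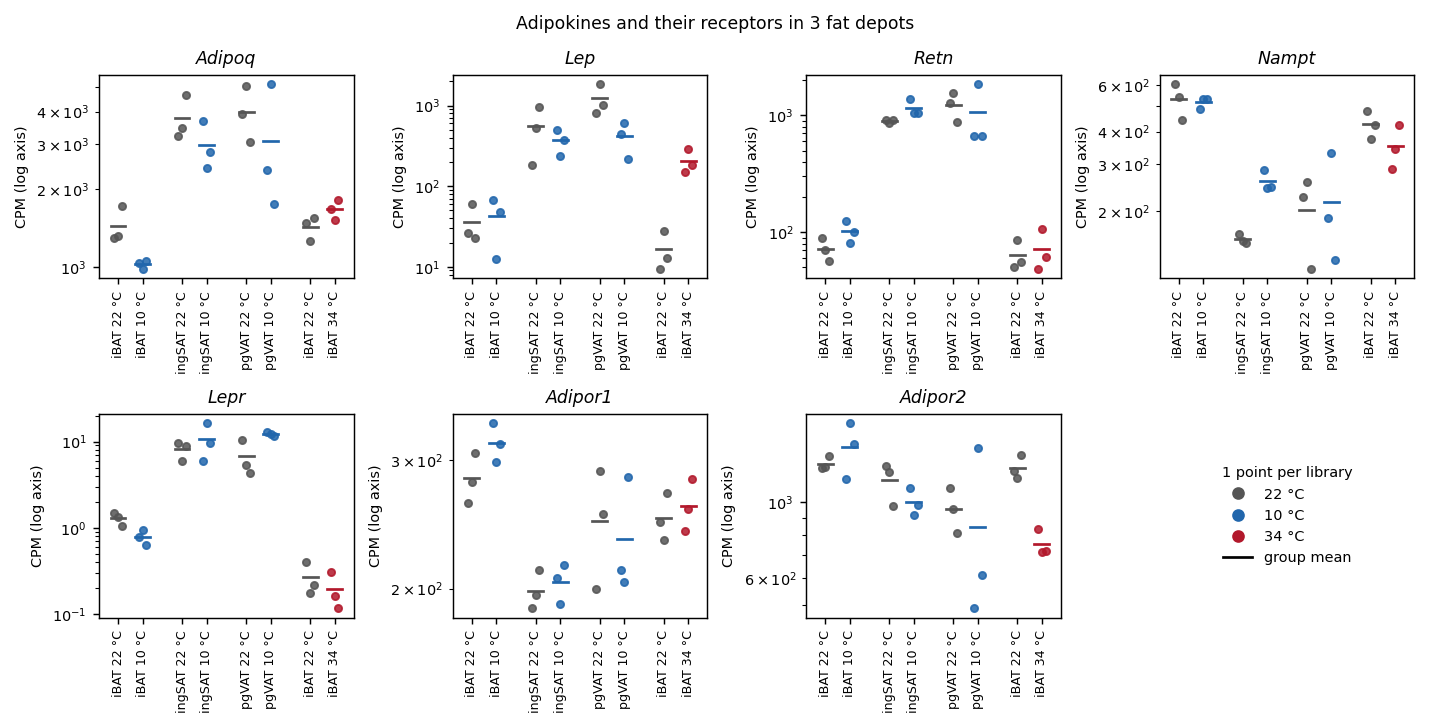
CPM of each gene in each fat library (points) with the group mean (line) on a log axis, at 22 °C and 10 °C in iBAT, ingSAT and pgVAT and at 22 °C and 34 °C in iBAT. Lep in iBAT at 34 °C lies at 152 to 286 CPM, above its controls at 9.35 to 27.5 CPM, and Nampt in ingSAT at 10 °C lies at 244 to 286 CPM, above its controls at 151 to 163 CPM.

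In inguinal fat at 10 °C, Nampt was the gene that rose. It was 163, 154 and 151 CPM in the 22 °C libraries and 286, 244 and 247 CPM at 10 °C. Every cold library was above every control, with means of 156 ± 6.48 and 259 ± 23.5 CPM (SD, n = 3) and a fold of 1.66 (log2 0.73 ± 0.12, adjusted p = 0.0176). It was 1 of 7 genes called, where 16.3% of all genes were called and 6.62% with an adjusted p under 0.05. Per 1000 CPM of adipocyte markers Nampt was 5.61 to 7.90 at 22 °C and 9.39 to 10.2 at 10 °C. In the same libraries all 7 brown fat markers were called higher, with sums of 155 to 212 CPM at 22 °C and 2381 to 3054 CPM at 10 °C, and Nampt at 22 °C was higher in brown than in inguinal fat; whether these move together through the same cells was not tested.

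Retn in inguinal fat was 916, 854 and 907 CPM at 22 °C and 1375, 1048 and 1043 CPM at 10 °C. The groups did not overlap, but the log2 fold change of 0.37 ± 0.17 missed the call (adjusted p = 0.203). Adipoq was 3226, 3447 and 4639 CPM at 22 °C and 3682, 2415 and 2778 CPM at 10 °C, with overlap and a log2 fold change of −0.35 ± 0.25. Per 1000 CPM of adipocyte markers it was 145 to 172 at 22 °C and 96.3 to 131 at 10 °C, without overlap, although 3 of the 10 markers were themselves called lower and 1 higher. Lep varied more within the controls than between groups, at 181, 534 and 967 CPM against 497, 234 and 377 CPM, and gave −0.60 ± 0.57 (adjusted p = 0.513). Without control library 1, the lowest, it was called lower (−1.02). Lepr gave 0.38 ± 0.39, Adipor1 0.04 ± 0.11 and Adipor2 −0.21 ± 0.17, each with overlapping libraries.

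In perigonadal fat at 10 °C, Lep was the 1 of 7 genes called, where 7.94% of all genes were called. Lep was 799, 1863 and 1014 CPM at 22 °C and 448, 602 and 217 CPM at 10 °C. All 3 cold libraries lay below all controls, with means of 1225 ± 562 and 423 ± 194 CPM and a log2 fold change of −1.54 ± 0.53 (adjusted p = 0.593). Libraries 1 and 3 at 10 °C are those with epididymis markers, and their adipocyte marker sums were 12499 and 10095 CPM against 30902 CPM in library 2 and 23207 to 31565 CPM at 22 °C. Per 1000 CPM of adipocyte markers, Lep was 34.4, 59.0 and 41.3 at 22 °C and 35.9, 19.5 and 21.5 at 10 °C, which overlapped. With library 2 as the only cold library, which was then assumed to vary like the controls, Lep had a log2 fold change of −0.998 and none of the 7 genes was called. The call was also lost without cold library 1 (−1.58), cold library 3 (−1.22) or control library 2 (−1.11). Without cold library 2, the one free of epididymis markers, Lep was −1.89, and Adipoq (−0.96), Retn (−0.90) and Adipor2 (−0.81) were called lower as well, which made 4 calls.

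Lepr in perigonadal fat was 10.4, 5.41 and 4.34 CPM at 22 °C and 12.8, 12.2 and 11.5 CPM at 10 °C. Each cold library exceeded each control, and the log2 fold change of 0.83 ± 0.38 missed the call (adjusted p = 0.593). Without control library 1 it was called (1.31). Adipoq was 3926, 5018 and 3053 CPM against 2377, 5126 and 1750 CPM, and Retn was 1264, 1561 and 873 CPM against 669, 1863 and 663 CPM. In both, cold library 2 was the highest of all 6 and the others the lowest, the order of the adipocyte marker sums at 10 °C. Their log2 fold changes were −0.37 and −0.21 with all libraries, and 0.38 and 0.62 with library 2 as the only cold library. Nampt was 225, 257 and 120 CPM against 188, 333 and 130 CPM (log2 0.11 ± 0.45). Per 1000 CPM of adipocyte markers it was 4.88 to 9.71 at 22 °C and 15.1, 10.8 and 12.8 at 10 °C, without overlap. The value was higher in cold libraries 1 and 3, whose adipocyte marker sums were the lowest, than in cold library 2. Nampt was found in every tissue, and the part of other cells in these values was not tested. Adipor1 gave −0.08 ± 0.28 and Adipor2 −0.18 ± 0.49. With library 2 as the only cold library, Nampt was 0.75, Adipor1 −0.26, Adipor2 0.61 and Lepr 0.84, so that Adipoq, Retn and Adipor2 changed sign. Lymphocyte markers summed to 23.6 to 25.6 CPM at 22 °C and 6.65 to 19.7 CPM at 10 °C, and their part was not tested.

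Whether the cold response differed between depots was tested in the joint fit as the difference of the 10 °C effects, with 3 contrasts of 7 genes. The call was made for 1 of 7 genes between pgVAT and iBAT, where 13.8% of all genes were called, for 0 of 7 between ingSAT and iBAT (9.34%) and for 0 of 7 between pgVAT and ingSAT (13.7%), and in the latter 2 contrasts no gene of the 7 had an unadjusted p under 0.05 in edgeR or a call by DESeq2. The called gene was Lepr, whose cold effect was higher in pgVAT than in iBAT by 1.48 ± 0.55 on the log2 scale (adjusted p = 0.208). For Lep the difference between the same depots was −1.78 ± 0.91 (adjusted p = 0.366), and for Nampt between ingSAT and iBAT it was 0.74 ± 0.42 (adjusted p = 0.541), and with all libraries edgeR called neither. DESeq2 called that of Lep (−1.77), and that of Nampt was called with library-size scaling (0.93), without pgVAT cold library 2 (0.74) and with that library as the only cold one of pgVAT (0.82). The number of calls over the 3 contrasts rose from 1 to 7 without pgVAT cold library 2 and to 5 with that library as the only cold one of pgVAT. Leaving out iBAT cold library 2 (−2.21) or control library 2 (−2.34), or ingSAT control library 1 (−1.78), each made 2 calls by adding Lep between pgVAT and iBAT, leaving out ingSAT cold library 1 (1.31) or pgVAT control library 1 (1.03) added Lepr between ingSAT and iBAT, and leaving out pgVAT control library 3 added Nampt between pgVAT and ingSAT (−0.88).

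In brown fat at 34 °C, Lep had the highest fold of the set. Its libraries held 9.35, 27.5 and 13.0 CPM at 22 °C and 152, 286 and 183 CPM at 34 °C. The lowest warm library was above the highest control, the means were 16.6 ± 9.61 and 207 ± 70.0 CPM (SD, n = 3), and the fold was 12.4 (log2 3.63 ± 0.44, adjusted p = 0.00259). Adipor2, the adiponectin receptor that predominates in liver, was 1231, 1177 and 1370 CPM at 22 °C and 834, 713 and 721 CPM at 34 °C. It fell without overlap, from 1259 ± 99.5 to 756 ± 68.0 CPM (log2 −0.74 ± 0.11, adjusted p = 0.00466). These were 2 of 6 genes tested, where 19.4% of all genes were called and 15.6% with an adjusted p under 0.05. Scaled by library size alone, which moved the median of all genes by 0.27, Adipor2 gave −0.46 and was not called.

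Adipoq in warm brown fat was 1474, 1262 and 1546 CPM at 22 °C and 1672, 1522 and 1810 CPM at 34 °C, with a log2 fold change of 0.22 ± 0.12 (adjusted p = 0.187). Per 1000 CPM of adipocyte markers, Lep was 0.417 to 1.31 at 22 °C and 8.15 to 13.0 at 34 °C, so it differed in the same way against the fat cell genes. Brown fat markers summed to 10985 to 14706 CPM at 22 °C and 5909 to 7317 CPM at 34 °C, with 4 of 7 called lower, and macrophage markers to 101 to 166 CPM and 211 to 357 CPM. The part of either in the values of Lep and Adipor2 was not tested. Muscle markers varied within the groups, from 3.94 to 6221 CPM at 22 °C and from 1372 to 4973 CPM at 34 °C. Retn gave 0.17 ± 0.32, Nampt −0.28 ± 0.16 and Adipor1 0.06 ± 0.10, all with overlapping libraries, and Lepr, at 0.267 ± 0.121 CPM or less on average, was not tested.

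**Figure D3:**
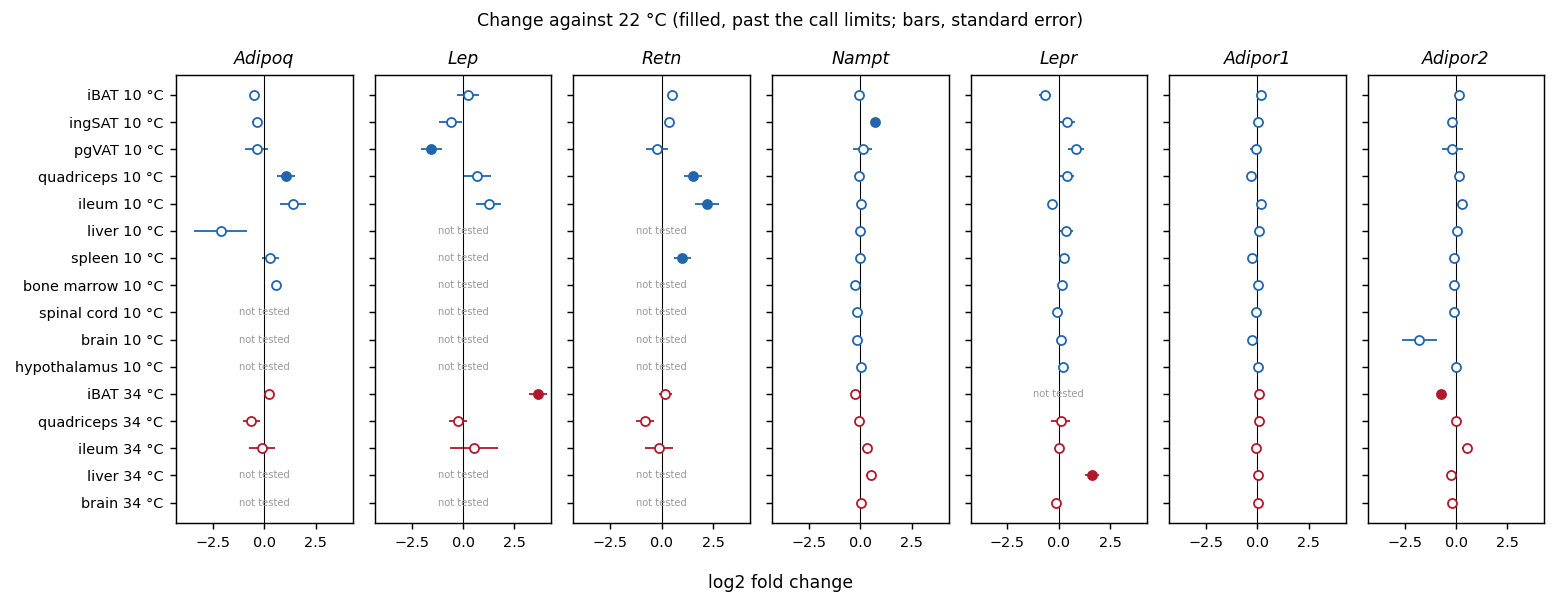
Log2 fold change with its SE for each gene in each comparison with its own 22 °C controls, with filled symbols for the called pairs. Lep in iBAT at 34 °C (3.63) and Retn in ileum at 10 °C (2.21) lie farthest above 0 among the called pairs, and Lep in pgVAT at 10 °C (−1.54) lies farthest below.

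Outside fat at 10 °C, the calls were of fat hormones at low levels. In quadriceps 2 of 7 genes were called, where 3.83% of all genes were. Retn was 11.1, 11.9 and 4.94 CPM at 22 °C and 29.4, 38.8 and 12.4 CPM at 10 °C, without overlap (log2 1.53 ± 0.45, adjusted p = 0.395). Adipoq was 29.4, 35.0 and 19.1 CPM at 22 °C and 64.9, 84.6 and 24.5 CPM at 10 °C, with overlap (log2 1.06 ± 0.42, adjusted p = 0.452). In both genes cold library 3 was the lowest of the cold libraries. Adipocyte markers moved alike: 7 of 10 were called higher, with sums of 837, 858 and 836 CPM at 22 °C and 1367, 1411 and 836 CPM at 10 °C. Leaving out cold libraries 1 and 2, chosen after the marker levels were seen, removed the libraries in which both genes were highest and left 1 cold library, so the spread came from the controls. Adipoq was then −0.18 and no gene of the set was called, a loss that the choice of libraries set in part. With all 6 quadriceps controls Adipoq gave 0.73 and was not called. Adipoq was also not called without cold library 1 (0.97) or 2 (0.69) or without control library 1 (1.10) or 3 (0.85). Of the adiponectin receptors, which muscle itself expresses, Adipor1 was 313 to 380 CPM against 245 to 299 CPM (log2 −0.32 ± 0.13, fold short of the limit, adjusted p = 0.458). Adipor2 gave 0.13 ± 0.09. Skeletal muscle markers summed to 342363, 240294 and 253159 CPM at 22 °C and 196563, 162187 and 256977 CPM at 10 °C, with overlap. Their part in the receptor values was not tested.

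In ileum at 10 °C Retn was the 1 of 7 genes called, where 2.71% of all genes were. It was 3.73, 0.692 and 2.13 CPM at 22 °C, from 64, 14 and 56 reads, and 15.3, 9.53 and 4.95 CPM at 10 °C, from 339, 158 and 79 reads. The groups did not overlap (log2 2.21 ± 0.59, adjusted p = 0.155). Adipoq was 14.6, 3.95 and 13.5 CPM against 48.1, 25.4 and 10.2 CPM and missed the call (log2 1.39 ± 0.62, adjusted p = 0.305), which was made without cold library 3 (1.78), as was that of Lep without control library 3 (2.0). Adipocyte marker sums were 290, 241 and 319 CPM at 22 °C and 532, 437 and 326 CPM at 10 °C, with 4 of 10 called higher. Lepr, Adipor1 and Adipor2 in ileum had an unadjusted p under 0.05 with folds under 1.5 and groups that did not overlap. Such a p was held by 2414 of all 14081 genes tested, and the share of all genes without overlap was not counted. Lepr was 30.9 to 39.4 CPM against 27.6 to 30.1 CPM (log2 −0.35 ± 0.11, adjusted p = 0.198), and Adipor2 239 to 261 CPM against 286 to 344 CPM (log2 0.30 ± 0.09, adjusted p = 0.181). In the same libraries enterocyte markers summed to 7670 to 8618 CPM at 22 °C and 12549 to 14516 CPM at 10 °C, the hepatocyte list to 2467 to 2667 CPM and 4070 to 5137 CPM, red cell markers to 32.3 to 57.6 CPM and 80.1 to 109 CPM, and muscle markers to 28.1 to 34.2 CPM and 36.7 to 105 CPM. None of these overlapped, and their part in the receptor values was not tested.

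In spleen at 10 °C Retn was again the 1 gene called, of 6 tested, where 2.68% of all genes were. It was 1.95, 1.69 and 0.977 CPM at 22 °C, from 31, 22 and 13 reads, and 3.73, 1.56 and 4.18 CPM at 10 °C, from 63, 27 and 41 reads. The groups overlapped (log2 1.0 ± 0.41, adjusted p = 0.488), and the call was lost without cold library 1 (0.85) or 3 (0.77) and without control library 2 (1.07) or 3 (0.75). Adipocyte marker sums in spleen were 147 to 188 CPM and 156 to 185 CPM, with 0 of 8 tested markers called by edgeR and 0 at an unadjusted p under 0.05. Lepr, highest in spleen among the 8 tissues sequenced alike, was 55.7 to 59.2 CPM at 22 °C and 64.0 to 73.9 CPM at 10 °C, without overlap and with a fold under 1.5 (log2 0.26 ± 0.08, adjusted p = 0.485). Neutrophil markers summed to 389 to 771 CPM at 22 °C and 119 to 143 CPM at 10 °C, and their part in the values of Retn and Lepr was not tested.

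In the liver at 34 °C Lepr was the 1 gene called, of 4 tested, where 3.38% of all genes were. It was 3.76, 2.37 and 1.94 CPM at 22 °C and 7.35, 5.62 and 12.1 CPM at 34 °C. The groups did not overlap, and the fold was 3.09 (log2 1.63 ± 0.33, adjusted p = 0.114). Hepatocyte markers summed to 89046 to 100539 CPM at 22 °C and 126919 to 133864 CPM at 34 °C, without overlap, and their part in the Lepr value was not tested. Nampt was 34.9 to 70.0 CPM against 61.3 to 96.6 CPM (log2 0.51 ± 0.25, adjusted p = 0.496) and was called without control library 1 (0.77) or warm library 2 (0.64), and Adipor2, abundant in liver, gave −0.27 ± 0.16. In the liver at 10 °C, Lepr gave 0.37 ± 0.31 in the other table, and 0 of 5 genes tested were called by edgeR, DESeq2 or the exact test, where 3.28% of all genes were, and 0 had an unadjusted p under 0.05. Hepatocyte markers there summed to 59405 to 67669 CPM at 22 °C and 86033 to 88819 CPM at 10 °C. Adipoq there was 16.7 CPM in 22 °C library 3 and 0.362 to 3.44 CPM in the other 5 libraries, so that its log2 fold change was −2.14 with that library and 1.54 without it, neither called. It was called lower without cold library 2 (−4.18) or control library 1 (−2.70), and Lepr was called higher without cold library 1 (0.62).

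In bone marrow at 10 °C none of 5 genes tested was called by edgeR, DESeq2 or the exact test, where edgeR called 1.29% of all genes. An unadjusted p under 0.05 was reached by 3 of the 5, and by 4139 of all 12525 genes tested. Adipoq ran from 9.40 to 23.0 CPM (median 13.4) at 22 °C and from 15.6 to 24.2 CPM (median 22.8) at 10 °C. The groups overlapped, and the fold of 1.496 fell just short of the limit (log2 0.58 ± 0.18, adjusted p = 0.0389). It was called without control library 1 (0.65), 3 (0.76) or 6 (0.59) or cold library 2 (0.66). Nampt averaged 98.9 ± 9.78 CPM at 22 °C and 82.7 ± 4.29 CPM at 10 °C (SD, n = 6; log2 −0.26 ± 0.06, adjusted p = 0.0108), a fold under 1.5. Neutrophil marker sums were 41156 to 59999 CPM at 22 °C and 38142 to 40429 CPM at 10 °C, and lymphocyte marker sums 500 to 677 CPM and 682 to 793 CPM. Their part in the Adipoq and Nampt values was not tested. Adipor1 had its highest per-length level here, at 100 CPM per kb, and gave 0.05 ± 0.05. Lep had 0 reads in all 12 libraries.

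In the nervous system at 10 °C edgeR called 0 of 4 genes tested in spinal cord (0.271% of all genes), 0 of 4 in brain (2.72%) and 0 of 4 in hypothalamus (0.578%). None of these had an unadjusted p under 0.05, and DESeq2 and the exact test also called 0 in spinal cord and hypothalamus. In hypothalamus, where leptin acts on feeding neurons, Lepr was 10.2 to 18.3 CPM at 22 °C and 15.7 to 18.1 CPM at 10 °C (log2 0.21 ± 0.16, adjusted p = 0.883). In brain, Adipor2 was 738 CPM in the 22 °C library with hepatocyte markers and 85.4 to 99.8 CPM in the other 5. Its log2 fold change was −1.78 ± 0.87 with that library and −0.13 without it. In the full set of libraries DESeq2 and the exact test called it. edgeR also called it without control library 1 or control library 3 (−2.21 for each), which leaves the library with hepatocyte markers in. At 34 °C, 0 of 7 genes were called by edgeR in quadriceps (1.21% of all genes), 0 of 7 in ileum (2.83%) and 0 of 4 in brain (0.193%), again with no gene at an unadjusted p under 0.05 and with 0 calls by DESeq2 and the exact test. In warm quadriceps Retn gave −0.80 ± 0.44, called lower without warm library 3 (−1.24) or control library 3 (−1.06), and Adipoq −0.65 ± 0.41. In warm ileum Adipor2 was 240 to 295 CPM against 275 to 521 CPM (log2 0.54 ± 0.24, adjusted p = 0.594), and it was called without warm library 1 (0.72).

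In quadriceps, ileum and spleen Retn and Adipoq were highest in the same cold library, and Retn was also expressed per 100 CPM of Adipoq within each library. This ratio was chosen after the values were seen. At 10 °C it was higher in every cold library than in every control in 5 of 6 tissues with enough reads. In iBAT it was 3.33 to 6.86 at 22 °C and 8.34 to 12.1 at 10 °C, where 55.5% of all genes behaved so. In ingSAT it was 19.6 to 28.4 against 37.4 to 43.4 (25.1% of all genes). Adipoq itself was lower on average in both depots at 10 °C, so that many genes were higher relative to it. In quadriceps it was 25.9 to 37.9 against 45.4 to 50.8 (0.557% of genes), in ileum 15.8 to 25.5 against 31.9 to 48.5 (0.0568%) and in spleen 26.8 to 34.2 against 48.8 to 53.2 (0.0567%). In pgVAT it was 28.6 to 32.2 against 28.1 to 37.9, with overlap (2.79%). The ratios of the group means were 1.94, 1.63, 1.46, 2.0 and 1.61 in the 5 tissues without overlap and 1.11 in pgVAT. Of 10194 genes measured in all 6 tissues, 3 (0.0294%) were higher per Adipoq without overlap in at least 5: Retn, the melanocortin receptor accessory protein Mrap, and Thrsp, a lipogenic fat cell gene, in all 6. The ratio and the limit of 5 tissues were both set from the values of Retn, so this share is a description and supports nothing. At 34 °C the ratio overlapped in all 3 tissues, at 3.44 to 6.84 against 2.89 to 7.03 in iBAT (9.22% of genes higher), 28.5 to 39.4 against 23.7 to 31.2 in quadriceps (4.32%) and 35.8 to 39.5 against 35.3 to 41.1 in ileum (0.0691%). In quadriceps, ileum and spleen the ratio of most genes to Adipoq is set by Adipoq itself, so the low shares there say nothing of Retn in particular. Set against adipocyte markers instead of Adipoq, Retn overlapped between cold and control libraries in each fat depot. Per 1000 CPM of these markers Retn was 2.89 to 5.17 at 22 °C and 4.36 to 6.75 at 10 °C in iBAT. In ingSAT the values were 33.7 to 44.2 against 39.7 to 48.9, and in pgVAT 35.5 to 54.5 against 53.5 to 65.7. No test was made on the ratio to Adipoq or on these values.

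**Figure D4:**
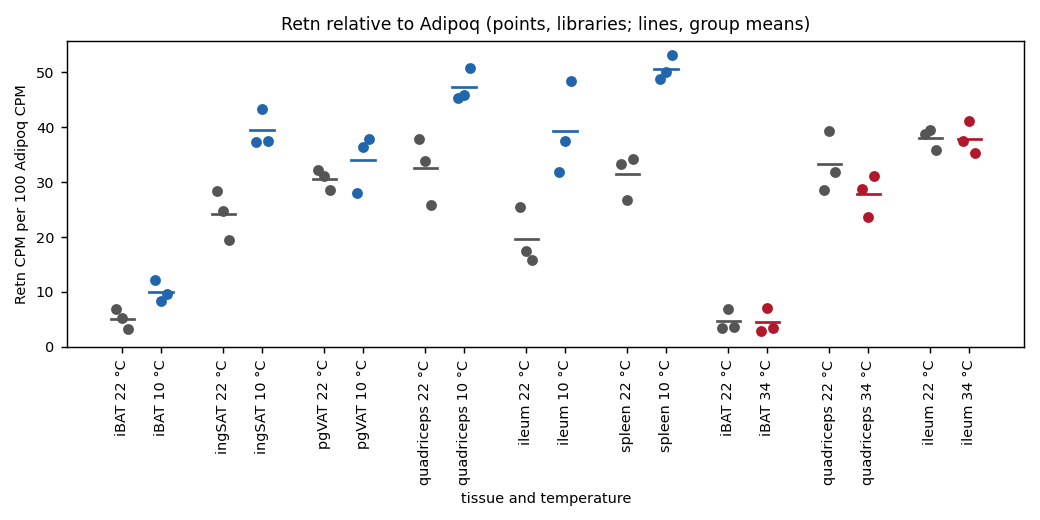
Retn per 100 CPM of Adipoq in each library (points) with the group mean (line), for the 22 °C and treated libraries of the 6 tissues at 10 °C and the 3 tissues at 34 °C, on a linear axis from 0. The cold libraries lie above their controls without overlap in iBAT, ingSAT, quadriceps, ileum and spleen, with overlap in pgVAT, and the warm libraries overlap with theirs in all 3 tissues.

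Among other adipokines more were called lower than higher in iBAT and ingSAT in the cold. Calls among all genes leaned the same way but were more evenly split (768 higher and 926 lower in iBAT, 1007 and 1278 in ingSAT). Of 20 listed (secreted factors such as Cfd, Angptl4, Retnla and chemerin, Rarres2), 16 were tested in iBAT, where 1 was called higher and 6 lower, against 13.2% of all genes called in either direction, with a median log2 fold change of −0.14 against −0.02 for all genes. Angptl4, an inhibitor of lipoprotein lipase, fell in iBAT from 428 ± 51.0 to 226 ± 35.3 CPM (log2 −0.92 ± 0.15, adjusted p = 0.00755), and Cfd, the complement factor adipsin, by 0.88 on the log2 scale (adjusted p = 0.0139). Retnla, a relative of Retn, went the other way from it and fell by 0.92 (adjusted p = 0.0238). In ingSAT 1 of 18 was higher and 7 lower (16.3% of all genes called), with a median of −0.57 against −0.01 for all genes. C1qtnf1, an adiponectin paralog, fell there by 1.62 (adjusted p = 0.0241), Angptl4 by 1.10 (adjusted p = 0.0295) and Rarres2 by 0.82 (adjusted p = 0.0401). In pgVAT 3 of 17 were higher and 2 lower (7.94% of all genes called), and with library 2 as the only cold library 2 were higher and 3 lower (8.84%). Apln, the hormone apelin, was 6.41 ± 1.83 CPM at 22 °C and 17.6 ± 10.9 CPM at 10 °C in pgVAT (log2 1.44 ± 0.48, adjusted p = 0.593), and 2.23 with library 2 alone. In iBAT at 34 °C 4 of 16 were higher and 1 lower (19.4% of all genes called, 1505 higher and 887 lower), with a median of 0.32 against 0.03 for all genes. Rarres2 rose from 52.0 ± 6.68 to 129 ± 21.8 CPM (log2 1.31 ± 0.15, adjusted p = 0.00207) and the adiponectin paralog C1qtnf9 by 1.05 (adjusted p = 0.00571), and the retinol carrier Rbp4 fell by 1.87 (adjusted p = 0.00205).

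Of 17 genes around adiponectin (its binding partners, kinase subunits and nuclear regulators), 16 were tested in each fat comparison. In iBAT at 10 °C 1 was higher and 3 lower, where 13.2% of all genes were called: Prkab1, a subunit of AMP-activated kinase, rose from 33.9 ± 4.88 to 83.3 ± 3.05 CPM (log2 1.30 ± 0.13, adjusted p = 0.000727), and the transcription factors Cebpa and Ppara fell by 0.79 (adjusted p = 0.0190) and 1.25 (adjusted p = 0.0360). In ingSAT 3 were higher and 1 lower (16.3% of all genes), and Ppara was there higher, by 0.84 ± 0.17 (adjusted p = 0.0328), as was the coactivator Ppargc1a by 0.97 ± 0.18 (adjusted p = 0.0253). In pgVAT 0 were called by edgeR (7.94% of all genes), with 0 at an unadjusted p under 0.05, and 1 was higher with library 2 as the only cold library. In iBAT at 34 °C, where 19.4% of all genes were called, 1 was higher, Cdh13 (T-cadherin, which binds adiponectin; log2 0.77 ± 0.16, adjusted p = 0.0140), and 1 lower, Ppargc1a (log2 −1.45 ± 0.26, adjusted p = 0.00821).

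Of 15 genes of leptin signalling, all were tested in the depots at 10 °C. In iBAT 1 was higher and 1 lower (13.2% of all genes called), in ingSAT 0 and 2 (16.3%), and in pgVAT 0 and 2 (7.94%), or 0 and 0 with library 2 as the only cold library. In iBAT and ingSAT these counts are near or below the share of all genes. Irs2, an adaptor of insulin and leptin receptors, was the gene called lower in each. It fell in iBAT from 181 ± 73.9 to 44.2 ± 29.7 CPM (log2 −2.04 ± 0.45, adjusted p = 0.0223) and in ingSAT from 109 ± 25.6 to 44.5 ± 10.4 CPM (log2 −1.30 ± 0.24, adjusted p = 0.0268), and in pgVAT it was 152 ± 52.4 against 70.8 ± 26.0 CPM (log2 −1.10 ± 0.38, adjusted p = 0.593; −0.60 and not called with library 2 alone). Stat3, the transcription factor activated by Lepr, was lower in ingSAT by 0.74 ± 0.18 (adjusted p = 0.0513). In iBAT at 34 °C 0 of 14 were higher and 2 lower (19.4% of all genes called), Stat5a (log2 −0.64 ± 0.12, adjusted p = 0.00854) and Irs1 (log2 −0.77 ± 0.14, adjusted p = 0.00860).

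Downstream of Lepr in the hypothalamus at 10 °C, edgeR called 0 of 15 genes of leptin signalling, with 2 at an unadjusted p under 0.05. Such a p was held by 897 of all 14526 genes tested. Of 7 genes of leptin-responsive neurons 1 was called higher, where 0.578% of all genes were called: Agrp, a neuropeptide that drives feeding and that leptin is known to repress. It was 4.05, 3.53 and 4.40 CPM at 22 °C and 7.57, 6.49 and 6.83 CPM at 10 °C, without overlap (log2 0.79 ± 0.14, adjusted p = 0.204). Npy, made by the same neurons, was 19.7, 17.3 and 17.5 CPM at 22 °C and 25.2, 26.7 and 28.7 CPM at 10 °C, also without overlap and with a fold of 1.481, short of the limit (log2 0.57 ± 0.09, adjusted p = 0.0832). Both were named after their values were seen. Oligodendrocyte markers summed to 3922 to 4254 CPM at 22 °C and 3464 to 3513 CPM at 10 °C, and red cell markers to 100.3 to 159 CPM and 173 to 178 CPM, and their part in these values was not tested. Pomc, the precursor of a satiety peptide that leptin induces, gave −0.12 ± 0.09, and Cartpt, Mc4r, Trh and Bdnf lay between −0.19 and 0.10.

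Around Nampt, 16 genes of NAD metabolism were listed. In ingSAT, where Nampt rose, 1 was called higher and 2 lower of 16 tested, against 16.3% of all genes: the mitochondrial deacetylase Sirt3 rose by 0.73 ± 0.14 (adjusted p = 0.0291), and Nnmt, which methylates nicotinamide, fell by 0.76 (adjusted p = 0.0266). The counts were 0 higher and 2 lower of 14 in iBAT at 10 °C (13.2% of all genes) and 1 and 1 of 15 in pgVAT (7.94%), or 0 and 0 with library 2 as the only cold library. In iBAT at 34 °C they were 2 higher and 1 lower of 11 (19.4% of all genes), with Nmnat3, which makes NAD in mitochondria, higher by 1.01 ± 0.09 (adjusted p = 0.00108) and Cd38, which breaks it down, by 0.95 ± 0.14 (adjusted p = 0.00385).

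Across the 16 groups of the table of 8 tissues, each gene was set beside the 15666 genes with a group mean of at least 5 CPM. The Pearson correlation of mean log2(CPM + 1) is given as a description. The points share libraries, are dominated by differences between tissues and were TMM-scaled only within each tissue. Closest to Adipoq were the lipid droplet genes Cidec (r = 0.996) and Plin1 (0.993) and then Cfd (0.988). Lep and Retn were close to each other (0.989), with Apol6 nearest to Lep (0.994) and Retnla nearest to Retn (0.991). The nearest to Nampt was the mitochondrial protease gene Spg7 (0.983), and the nearest to Adipor2 were Cebpa (0.982) and the peroxisomal Pex16 (0.977). For Adipor1 the closest was Tinagl1 (0.973), and for Lepr Eml4 and Vps13b (0.964 each).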

How the data were processed

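Gene counts of bulk RNA sequencing were analysed from 106 libraries. The authors aligned reads to mm10 and counted reads per gene to make the deposited raw counts, whole numbers without scaling; the submitters' processing notes name STAR 2.5.3a, Picard 1.141 and HTSeq 0.6p1. Alignment and counting were not repeated. Each table was fitted on its own, and of 21647 gene IDs of the largest, 21583 matched a symbol. The 7 genes and the lists of related genes were chosen with earlier results of these data known, so they give no independent support.

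Each treated group was compared with its own 22 °C libraries in edgeR 4.0.16 (R 4.3.3): TMM scaling, genes with an average log2 CPM above 0, the two-sided quasi-likelihood F-test, and Benjamini-Hochberg adjustment over all genes tested. Calls used the study's limits. The SE of a fold change was derived from its F statistic. No p was adjusted across the 16 comparisons. A joint fit of 18 fat libraries tested differences between depots. CPM used the effective library size of each comparison. With pooled or single mice, p-values measure the spread between these libraries. Quadriceps controls were assigned by the authors' group means, which matched 1 set of 3 libraries for 1999 of 1999 genes and the other for 5. The labels give 34 °C in the protocol of every sample, so temperatures came from the titles.

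The 7 genes were named in every comparison, with at most 3 called genes of lowest p per list and the 3 genes most alike; outside that rule, Mrap, Thrsp and the hypothalamic genes were named after their values were seen, and 1 listed gene is not reported here. On simulated counts for ingSAT over all genes, 82.5% of 97 genes changed by 1 on the log2 scale and 99.0% of 98 changed by 2 were called, as were 2.80% of 13768 unchanged genes. Alternatives were DESeq2 1.42.0, edgeR's exact test, library-size scaling, no filter, an adjusted limit, a replicate block and leaving out libraries. Within a tissue, replicate numbers showed no pairing of cold with control libraries. Over 34 same-numbered pairs in 10 tissues, the correlation of deviations ran from −0.689 to 0.429, and no tissue had every pair over 0.1. Same-numbered libraries of different tissues were not correlated, and the joint fit took them as independent. With a replicate block joining those of the depots, its counts stayed at 1 (cold response) and 13 (22 °C).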

Additional observations from a re-analysis of the deposited data

Results flagged for a closer look

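Chance alone flags about 1 in 20 groups for a library far from the rest, and 4 values in 3 libraries were flagged among 24 sets of a gene and a group of 5 or 6 libraries. In bone marrow at 10 °C the lowest Adipoq library, number 2, held 15.6 CPM, with the next at 22.7 and the highest at 24.2 CPM. In spinal cord at 10 °C, library 5 was the highest for Lepr at 8.22 CPM, with the next at 6.94 CPM, and library 4 was the lowest for Nampt at 43.9 CPM, with the next at 61.2 CPM. The same library 4 was the highest for Retn at 0.280 CPM, with the next at 0.0715 CPM, a level of few reads. The cold effect on Lepr differed between pgVAT and iBAT by 1.48 on the log2 scale in the test of the difference itself, with an adjusted p of 0.208 over all genes.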

How the results depend on the processing

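Of the counts of genes called, 184 under an alternative were within 1.5 times the reported one and 63 were not. Of single values, 1933 kept their direction and their side of the limits, 100 changed sign without a call under either setting, 57 gained a call and 27 lost one. Of called values 1 changed sign, Adipoq in quadriceps at 10 °C (−0.18 without cold libraries 1 and 2). Lep in iBAT at 34 °C stayed called in all 11 alternatives (log2 3.31 to 4.20), and Nampt in ingSAT at 10 °C in all 12 at the study's limits (0.65 to 0.80), with an adjusted p of up to 0.125. With an adjusted p under 0.05 as the limit, the count fell to 0 in pgVAT, quadriceps, ileum and spleen at 10 °C, in liver at 34 °C and in the depot difference of the cold response. DESeq2 called 2 in that difference, 1 in quadriceps and 1 in brain at 10 °C, and the exact test 2 in ileum and 1 in brain. Library size alone gave 1 in bone marrow, 2 in iBAT at 10 °C, 1 in iBAT at 34 °C and 3 in the depot difference of the cold response. Without the filter there was 1 in bone marrow and 2 in ileum, and with all 6 quadriceps controls 1 at 10 °C. Without pgVAT cold libraries 1 and 3, left out after seeing the data, there were 0 in pgVAT and 5 in the depot difference, and without quadriceps cold libraries 1 and 2 there were 0. The fit with the replicate block gave 1 in bone marrow and 3 in ileum and changed no other count by over 1.5 times; no paired analysis was possible for quadriceps and the 34 °C experiment because their columns carry no replicate number. The cause of these shifts was not tested.

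Leaving out 1 library at a time, the counts ran from 0 to 1 in bone marrow, iBAT, liver, spleen and brain at 10 °C and in quadriceps and ileum at 34 °C. They ran from 1 to 2 in ingSAT, quadriceps and ileum at 10 °C and in liver at 34 °C, from 0 to 4 in pgVAT, from 1 to 7 in the depot difference of the cold response and from 12 to 14 in the depot difference at 22 °C. Depth limits Lepr in iBAT and the hormones outside fat most, where a group mean can be below 1 CPM.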
